A study of Mus musculus with 6 samples.

Results

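The S100 proteins are a family of small calcium-binding proteins, and 10 of their genes (S100a1, S100a4, S100a6, S100a8, S100a9, S100a10, S100a11, S100a13, S100a14 and S100a16) were followed here in 6 mouse breast tumours. They were taken as all probes annotated to these symbols on an Illumina bead array, which gave 11 probes among the 45279 on each array, for 10 of 19057 named genes. The 3 control tumours came from FVB mice with both Cyp27b1 alleles floxed and no Cre recombinase, and the 3 knockout tumours from FVB mice with the same floxed alleles and Cre. Cyp27b1 encodes the hydroxylase that activates vitamin D, and the series title places its loss in the mammary epithelium. The comparison asks which transcripts differ in tumours that lack this enzyme. The floxed alleles are shared by all 6 tumours and only the knockout tumours carry Cre, so loss of Cyp27b1 and presence of the recombinase cannot be told apart. The sources used here give neither the promoter that drives Cre, nor the ages of the mice, nor how the tumours arose. The animal behind each tumour is not labelled, and p-values thus rest on the spread among tumours, which may be technical.

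S100 proteins carry a pair of EF-hand loops that bind calcium. Most form dimers, and calcium opens a surface by which they hold other proteins, such as annexins and the heavy chain of non-muscle myosin. Some, above all S100A8 and S100A9, are also released from cells and act on the receptors RAGE and TLR4. Most of the genes lie side by side in the cluster on chromosome 3 that also holds genes of the outer skin layer. Vitamin D has a long link with the family through S100g, which encodes calbindin-D9k, an intestinal calcium carrier known as a target of the vitamin D receptor.

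All values below are signals after background correction, quantile normalization and log2 transformation, and a probe was above background on an array at a detection p below 0.05. The summed signal of an array ran from 1.07e7 to 1.48e7, and 33.4% to 36.1% of the probes were above background. Cyp27b1 was not above background on any array, with 4.34 ± 0.05 in the control and 4.36 ± 0.07 (SD, n = 3 each) in the knockout tumours, so its probe checks nothing about the deletion. Knockout 1 stood apart from the other knockout tumours on the second principal component (53.5 against -26.2 and -31.5, with 18.4% of the variance). The difference of each S100 gene is therefore given with and without it. Krt8 and Krt18, keratins of luminal epithelium, were above background on all 6 arrays, which shows epithelium and not which tissue it came from. Of 22 luminal markers with a probe, 17 were above background on at least 3 of the 6 arrays. The other 5 were at or near background. By any probe, Epcam, Esr1 and Pgr were above it on at most 1 array, Foxa1 on 2 and Ehf on none. In such bulk samples, fewer cells of a type and less RNA per cell cannot be told apart.

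None of the 10 S100 genes changed between the groups at an adjusted p below 0.05 in limma, where 9.20% of the 15885 probes tested did. At an unadjusted p below 0.05 there were 3 of the 10 (S100a1, S100a4 and S100a6), against 24.7% of all probes tested. The difference of knockout minus control was positive for 5 genes and negative for 5, with a median of -0.09 log2 units against 0.05 over all probes tested. The groups did not overlap at 3 of the 10, against 30.2% of all probes tested. In the knockout tumours 1 of these was higher, S100a1 (16.4% of all probes), and 2 were lower, S100a6 and S100a11 (13.8% of all probes). The shares without overlap and at an unadjusted p below 0.05 lie near those of all probes. Every member had 1 probe that passed the filter on dim probes (above background on at least 3 of the 6 arrays). The second probe of S100a14 was not above background on any array. Of the 10 probes tested, 7 were above background on all 6 arrays. S100a4 and S100a14 fell short on knockout 1 alone, and S100a9 on control 1 and knockout 1.

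**Figure D1:**
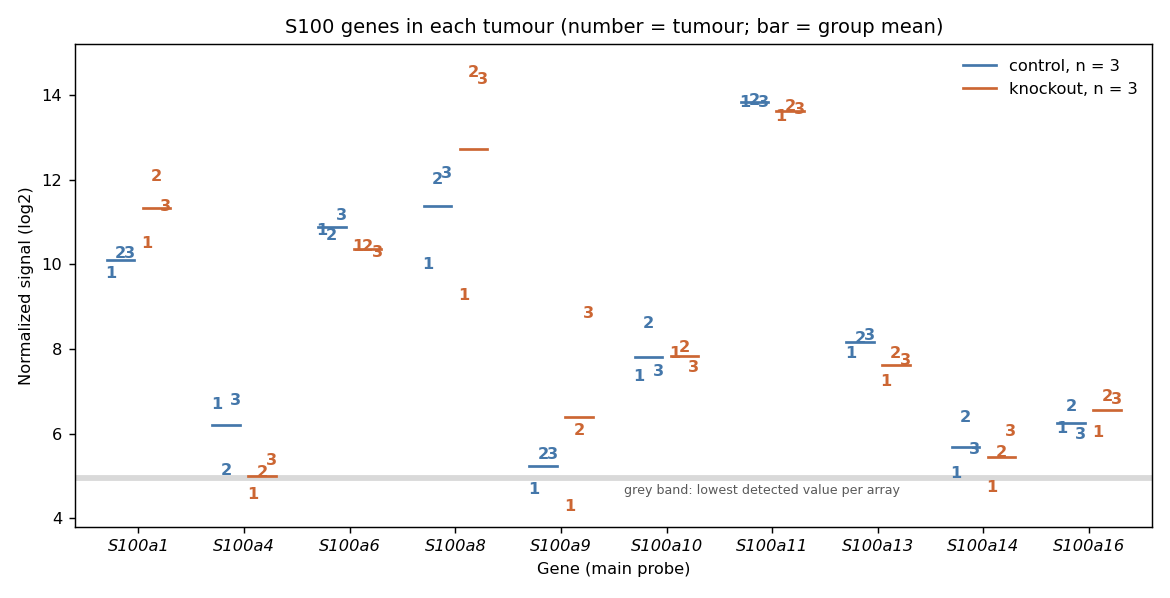
Normalized log2 signal (y axis) of the main probe of each S100 gene (x axis) in each tumour, where the numeral is the tumour's number, blue marks control, orange marks knockout, the bar is the group mean and the grey band spans the lowest detected values of the arrays. S100a8 in the knockout tumours runs from 9.27 to 14.53, while S100a11 lies between 13.49 and 13.87 in all 6. Probes differ in brightness, so levels may be compared within a gene and not between genes.

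S100a8 and S100a9 encode the subunits of calprotectin, a protein of neutrophils and monocytes that inflamed epithelia can also make, and which withholds zinc and manganese from microbes. S100a8 had normalized log2 values of 9.99, 11.99 and 12.15 in control tumours 1, 2 and 3 and of 9.27, 14.53 and 14.37 in knockout tumours 1, 2 and 3. The lowest and the highest values of all 6 tumours were thus both in the knockout group, and the groups overlapped. In the deposited signals, before any normalization, the knockout tumours read 899, 25563 and 21127. The spread within the knockout group was 38.5-fold (5.27 log2 units), and only 6 of the 15885 probes tested had a wider one, where the median was 0.52 log2 units. Knockout minus control was 1.35 ± 1.34 log2 units (SE, 95% interval -1.76 to 4.45, adjusted p = 0.60). Without knockout 1 it was 3.07 and passed the test (adjusted p = 0.021, range over the alternatives 0.021 to 0.91), and without control 1, knockout 2 or knockout 3 it was 0.65, 0.44 and 0.53.

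S100a9 lay at 4.69, 5.50 and 5.50 in control tumours 1, 2 and 3 and at 4.27, 6.07 and 8.83 in knockout tumours 1, 2 and 3. It too was lowest in knockout 1, where it was not above background, and highest in another knockout tumour. The order differed from that of S100a8 at the top: S100a8 was alike in knockout 2 and 3 (0.17 log2 units apart, higher in knockout 2), whereas S100a9 was 6.78-fold higher in knockout 3 than in knockout 2. Knockout minus control was 1.16 ± 0.98 log2 units (SE, 95% interval -1.11 to 3.43, adjusted p = 0.53), or 0.50 with the authors' normalized values. It was 2.22 without knockout 1 (adjusted p = 0.10, range over the alternatives 0.10 to 0.97) and -0.06 without knockout 3. The S100a9 probe was dim on 5 of the 6 arrays, with deposited signals of 92.2 to 150.0, against 525 on knockout 3.

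**Figure D2:**
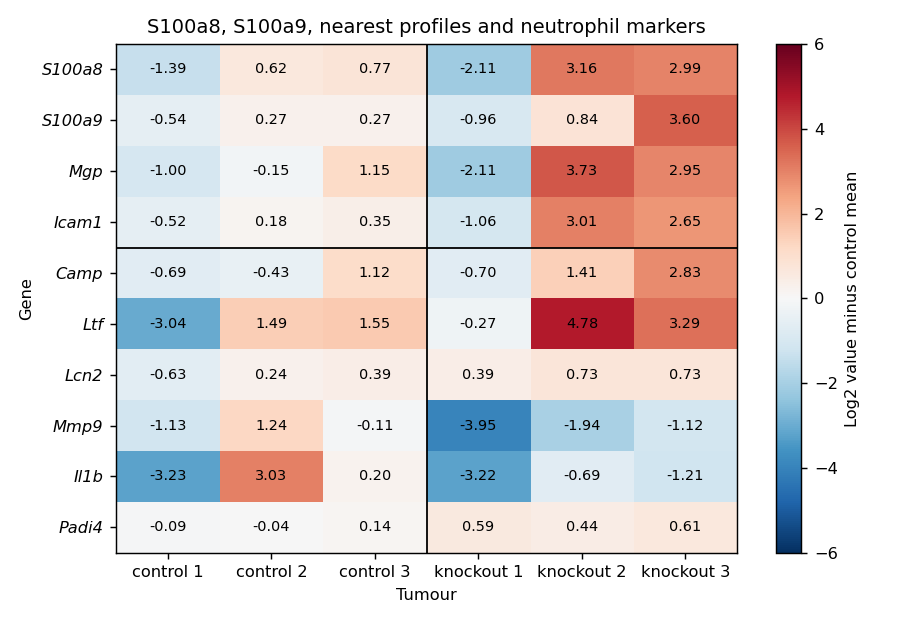
Log2 value minus the mean of the 3 control tumours, by gene (rows) and tumour (columns), for S100a8, S100a9, the nearest profiles to S100a8 and all 6 measured neutrophil markers. S100a8, Mgp and Icam1 stand at -2.11, -2.11 and -1.06 in knockout 1 and between 2.65 and 3.73 in knockout 2 and 3. Mmp9 and Il1b stand below 0 in all 3 knockout tumours, and are lowest in knockout 1.

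The profile nearest to S100a8 over the 6 tumours, among 13801 named probes outside the family, was that of Mgp, which encodes matrix Gla protein, an inhibitor of calcification in soft tissue. The root mean square difference between them was 0.44 log2 units after each was centred on its own mean. Mgp lay at 9.39, 10.23 and 11.53 in the control and at 8.27, 14.12 and 13.34 in the knockout tumours. Icam1, an adhesion molecule for leukocytes, came next at 0.62 log2 units. S100a9 itself lay 1.16 from S100a8 by the same measure. The nearest to S100a9 were Syn2, a synapsin (0.43), and Trpv6, an epithelial calcium channel (0.51). Trpv6 read 5.02, 5.23 and 4.64 in the control and 4.48, 5.81 and 7.77 in the knockout tumours, so that knockout 3 was again the highest. The 6 probes with a wider range than S100a8 among the knockout tumours included those of Csn1s1, a casein, and of Saa1 and Saa3, serum amyloid proteins of the acute phase, all chosen after their values were seen. Saa1 read 5.64, 14.27 and 14.13 and Saa3 read 5.86, 13.29 and 12.80 in knockout tumours 1, 2 and 3. In the same order Csn1s1 read 4.96, 13.67 and 13.32, and an unnamed probe 4.77, 11.95 and 11.18. Mgp, given above, was also among the 6. All of these were low and high in the same tumours as S100a8. The remaining probe was that of Igf2, which was highest in knockout 1 (11.05), lowest in knockout 2 (4.39) and 9.07 in knockout 3.

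Of 14 neutrophil markers with a probe, 6 were measured and none passed the test in either direction (median log2 difference 0.58). Ltf, which encodes lactoferrin, a protein of neutrophil granules and of milk, lay at 6.03, 10.55 and 10.62 in the control and at 8.79, 13.84 and 12.36 in the knockout tumours. Lcn2, a lipocalin that epithelium also makes, lay between 13.59 and 14.60 in the control and between 14.60 and 14.94 in the knockout tumours. Mmp9, a gelatinase, gave a difference of -2.34 log2 units (adjusted p = 0.11), of opposite sign to S100a8. Il1b too was of opposite sign (-1.70, adjusted p = 0.52). Camp, which encodes the granule peptide cathelicidin, read 4.46, 4.72 and 6.27 in the control and 4.46, 6.56 and 7.98 in the knockout tumours (1.18, adjusted p = 0.45), with knockout 3 the highest as for S100a9. Padi4, an enzyme that citrullinates histones in neutrophils, was above background in the knockout tumours alone (0.55, adjusted p = 0.11). It could thus pass the filter only through them, and the median of the list includes it. Of the 6 measured markers, 5 were detected in both groups and none of these was called. The defining neutrophil markers Cxcr2, Ngp, Mmp8 and Retnlg were not above background on any array, and Csf3r, Mpo and Elane were so on at most 2. The summed linear value of the 6 measured markers ran from 12647 to 27155 in the control and from 25340 to 46470 in the knockout tumours. Lcn2 alone made up 67.6% to 97.8% of this sum, and Ltf 31.6% in knockout 2 and 14.1% in knockout 3. Without Lcn2 the sum was 356, 4397 and 2369 in control tumours 1, 2 and 3. In knockout tumours 1, 2 and 3 it was 554, 15077 and 5856. The mean log2 level of all 6 markers was 6.80, 9.19 and 8.82 in the control and 7.08, 9.06 and 9.12 in the knockout tumours. Within each group both measures were lowest in tumour 1, as S100a8 was. The part of neutrophils in the S100a8 and S100a9 signals was not tested.

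Around their starts, S100a8 and S100a9 were compared in RefSeq windows of 250 bases before to 50 after the start of the gene (GRCm38.p6). They are shown because these are the members with the widest spread, with matches to TATAAA and to TTGCNNAA, a core of C/EBP sites, in capitals, 5′ to 3′ on the strand of each gene.
S100a8 (chr3:90668821-90669120, plus strand): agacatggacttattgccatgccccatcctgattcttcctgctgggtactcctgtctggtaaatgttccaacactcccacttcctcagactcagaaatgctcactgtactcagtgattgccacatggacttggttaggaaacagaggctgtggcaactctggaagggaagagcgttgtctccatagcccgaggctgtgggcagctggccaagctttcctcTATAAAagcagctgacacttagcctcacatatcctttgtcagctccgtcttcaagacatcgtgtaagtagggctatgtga
S100a9 (chr3:90695672-90695971, minus strand): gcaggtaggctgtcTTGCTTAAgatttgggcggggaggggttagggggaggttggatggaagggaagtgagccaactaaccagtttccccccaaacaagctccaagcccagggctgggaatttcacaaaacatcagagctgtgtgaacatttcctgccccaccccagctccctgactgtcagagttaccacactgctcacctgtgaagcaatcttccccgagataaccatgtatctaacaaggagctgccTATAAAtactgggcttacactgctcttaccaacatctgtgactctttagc
TATAAA was searched on the strand of the gene alone and the other motifs on both strands. S100a8 held TATAAA and S100a9 held TATAAA and TTGCNNAA, motifs present in 8.32% and 10.8% of all 32851 windows in the table. The AP-1 motif TGANTCA was in neither (7.81% of all windows), nor was the STAT motif TTCNNNGAA (8.30%). The table held 9 windows for 8 of the 10 members. The element that the vitamin D receptor binds with its partner, AGGTCA repeated after a gap of 3 bases, was in 0 of these 9 windows and in 2 of all 32851. A lone AGGTCA was in 3 of the 9, those of S100a4, S100a11 and 1 of the windows of S100a16, against 16.3% of all windows. Matches describe letters, not binding.

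S100a1 encodes a calcium sensor best known from heart and skeletal muscle, where it acts on calcium release. It was the member of smallest p, with log2 values of 9.77, 10.26 and 10.25 in control tumours 1, 2 and 3 and of 10.50, 12.08 and 11.37 in knockout tumours 1, 2 and 3. Every knockout tumour lay above every control tumour, though knockout 1 by only a small step. The means were 10.09 ± 0.28 in the control and 11.32 ± 0.79 in the knockout tumours (SD, n = 3 each). The difference was 1.23 ± 0.39 log2 units (SE, 95% interval 0.33 to 2.12, 2.34-fold) and missed the threshold after adjustment over all probes (adjusted p = 0.093). It passed without knockout 1 (1.63, adjusted p = 0.015) and when arrays were weighted by quality (1.52, adjusted p = 0.029), while without knockout 2 it was 0.84 (adjusted p = 0.23, range over the alternatives 0.015 to 0.26). The profile of S100a1 was nearest to those of 1700025G04Rik (0.09 log2 units) and of the adhesion molecule Ceacam1 (0.10). Luminal markers of the mammary epithelium were higher in the same knockout tumours, 10 of 17 measured by the test and none lower (median 1.67, against 4.14% of all probes called higher). The count includes Spint2, which was above background in the knockout tumours alone and so could pass the filter only through them, and 9 genes were called among the 16 detected in both groups. The mean log2 level of the luminal markers was 7.55, 8.14 and 7.15 in control tumours 1, 2 and 3. In knockout tumours 1, 2 and 3 it was 9.52, 9.64 and 9.14. Within the groups it was lowest in control 3 and knockout 3, whereas S100a1 was lowest in control 1 and knockout 1. Markers of cartilage and Schwann cells, cell types known for S100 proteins, had 2 of 3 measured members higher, the collagens Col2a1 and Col9a2. The third, Sox10, gave 1.98 (adjusted p = 0.14), and 4 of 7 with a probe did not pass the filter. The part of these cell types in the S100a1 values was not tested.

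S100a13, which takes part in the release of FGF1 and interleukin 1 alpha from cells, starts next to S100a1 on the other strand. In RefSeq their starts lie 105 bases apart, and the windows around them share 204 bases, which are in capitals in the window of S100a1, shown because these neighbours gave differences of opposite sign.
S100a1 (chr3:90514281-90514580, minus strand): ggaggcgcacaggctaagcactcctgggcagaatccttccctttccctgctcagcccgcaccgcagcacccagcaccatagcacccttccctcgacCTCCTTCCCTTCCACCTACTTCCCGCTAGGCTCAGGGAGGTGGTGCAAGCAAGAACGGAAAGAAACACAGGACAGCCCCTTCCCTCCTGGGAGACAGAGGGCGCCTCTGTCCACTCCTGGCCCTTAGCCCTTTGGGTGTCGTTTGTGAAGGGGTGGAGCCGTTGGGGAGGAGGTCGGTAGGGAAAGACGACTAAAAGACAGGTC
None of the motifs named above was in this window. S100a13 lay at 7.89, 8.25 and 8.32 in the control and at 7.23, 7.90 and 7.73 in the knockout tumours, so that the groups met within 0.01 log2 units. Its difference was -0.53 ± 0.24 log2 units (SE, 95% interval -1.10 to 0.03, adjusted p = 0.23), of opposite sign to S100a1, and -0.34 without knockout 1. Whether the differences of these neighbours differ from each other was not tested. Il1a, a partner of S100A13 in release, is given with the other partners.

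**Figure D3:**
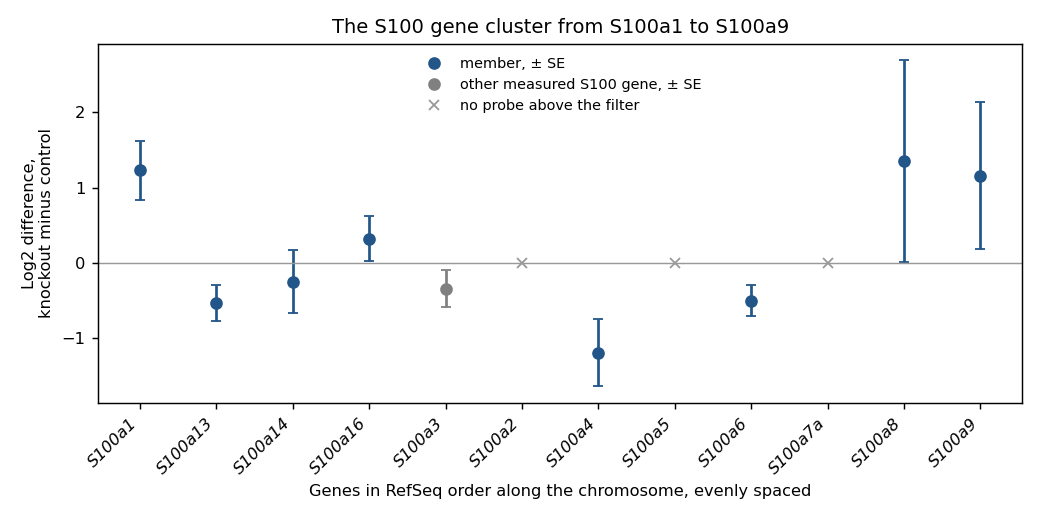
Log2 difference of knockout minus control (y axis, ± SE) for the genes from S100a1 to S100a9 in RefSeq order along chromosome 3 (x axis, evenly spaced). Points lie on both sides of 0 along the cluster, from -1.19 for S100a4 to 1.35 for S100a8, and crosses mark genes with no probe above the filter.

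S100a4 encodes metastasin, also called fibroblast-specific protein, which binds the heavy chain of non-muscle myosin and is made by fibroblasts and by some leukocytes. It had log2 values of 6.68, 5.12 and 6.78 in control tumours 1, 2 and 3 and of 4.57, 5.08 and 5.36 in knockout tumours 1, 2 and 3. Control 1 and 3 were high, and control 2 lay among the knockout tumours. Knockout minus control was -1.19 ± 0.45 log2 units (SE, 95% interval -2.24 to -0.15, adjusted p = 0.15). The difference was -1.73 and passed the test without control 2 (adjusted p = 0.020, range over the alternatives 0.020 to 0.38). The probe was dim, and the size depended on the background: it was -0.32 with the authors' values, -0.49 with no background correction and -0.73 with a larger offset. Without knockout 1 it was -0.98. Fibroblast markers were lower in the same tumours, with 6 of 13 measured lower by the test and none higher (median -2.50, against 5.06% of all probes called lower). Their summed linear value ran from 35548 to 46656 in the control and from 5375 to 11898 in the knockout tumours. Their mean log2 level was 9.42 in control 2, the lowest of the control tumours, 9.72 and 10.67 in control 1 and 3, and 6.36 to 8.31 in the knockout tumours. The part of fibroblasts in the S100a4 values was not tested. The profiles nearest to that of S100a4 were those of Ydjc (0.23 log2 units) and Nphp4 (0.24).

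S100a6, which encodes calcyclin, a protein of dividing cells and of fibroblasts, read 10.79, 10.68 and 11.14 in the control and 10.42, 10.41 and 10.27 in the knockout tumours. The groups did not overlap, and the knockout tumours lay within 0.15 log2 units of each other. The difference was -0.50 ± 0.20 log2 units (SE, 95% interval -0.97 to -0.04, 1.42-fold higher in the control tumours, adjusted p = 0.17). S100a11, a partner of annexin A1 in membrane traffic and repair, was the steadiest member, with 13.82, 13.87 and 13.81 in the control and 13.49, 13.72 and 13.65 in the knockout tumours. These groups did not overlap either, and the difference was -0.21 ± 0.18 log2 units (SE, 95% interval -0.63 to 0.20, adjusted p = 0.54). Its interval excludes a change as large as 1 log2 unit in either direction. Without knockout 1 the differences of S100a6 and S100a11 were -0.53 and -0.14. The call for S100a6 and S100a11 stayed below significance in all 15 alternatives, with adjusted p-values from 0.081 and 0.25 upward.

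S100a10, known as p11, has lost the ability to bind calcium and holds annexin A2 at the cell surface, where the complex binds plasminogen and its activator. It read 7.34, 8.61 and 7.47 in the control and 7.90, 8.03 and 7.55 in the knockout tumours. Control 2 was the highest of all 6 and the other values overlapped. The difference was 0.02 ± 0.35 log2 units (SE, 95% interval -0.79 to 0.84, adjusted p = 0.98), with 0.43 without control 2 and -0.01 without knockout 1. S100a16, a widely expressed member, read 6.11, 6.63 and 5.99 in the control and 6.02, 6.88 and 6.80 in the knockout tumours, a difference of 0.32 ± 0.30 log2 units (SE, 95% interval -0.36 to 1.01, adjusted p = 0.57). It was 0.60 without knockout 1, 0.52 without control 2, 0.17 without knockout 2 and 0.10 with the authors' values. S100a14, a member of epithelia, read 5.07, 6.39 and 5.62 in the control and 4.72, 5.56 and 6.04 in the knockout tumours. It was dim throughout, not above background on knockout 1, and gave -0.25 ± 0.42 log2 units (SE, 95% interval -1.24 to 0.73, adjusted p = 0.78), or 0.11 without knockout 1. Its groups overlapped, and its second probe lay between 4.32 and 4.75 on all 6 arrays. The profile of S100a14 was nearest to that of Rbbp7, a histone-binding protein (0.13 log2 units), while both S100a10 and S100a16 varied too little over the tumours for such a search (SD of at least 0.5 required).

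**Figure D4:**
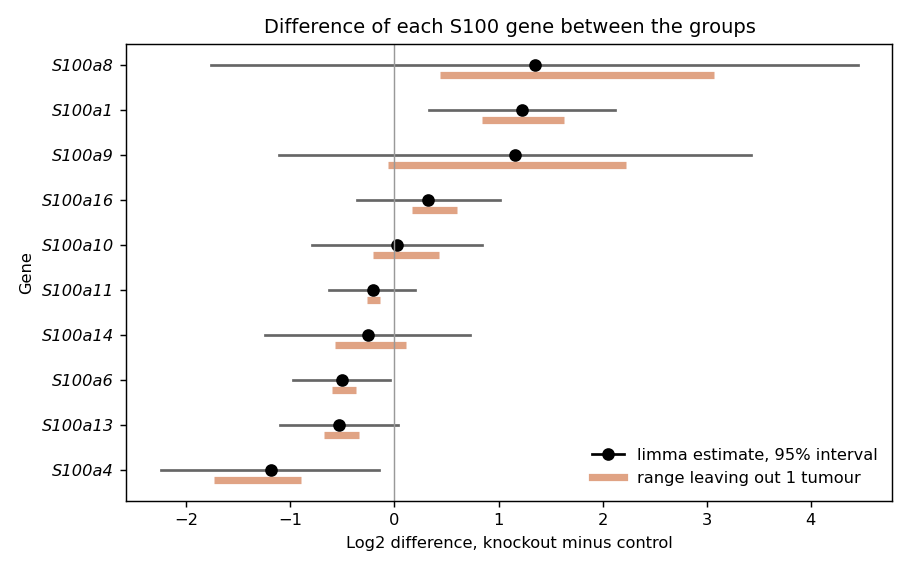
Log2 difference of knockout minus control (x axis) for each S100 gene (y axis), with black points for the limma estimate, grey lines for its 95% interval and orange bars for the range over the fits that leave out 1 tumour. The widest bars are those of S100a8 (0.44 to 3.07) and S100a9 (-0.06 to 2.22), and that of S100a11 is the narrowest (-0.26 to -0.14).

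The other S100 genes were near background. S100a3 had a probe above background on 3 arrays, with 5.10 ± 0.36 in the control and 4.76 ± 0.22 (SD, n = 3 each) in the knockout tumours (difference -0.34, adjusted p = 0.45). S100a5, S100b, S100g and S100z were not above background on any array, and S100a7a on knockout 3 alone. S100g, the classical vitamin D target of the family, lay between 4.47 and 4.82 in the 6 tumours, below the lowest detected value of each array. Of the fused-type S100 genes of the outer skin layer, Crnn and Tchhl1 were not above background on any array, and Flg2 and Rptn were so on at most 2.

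Among the receptors, RAGE (gene Ager) was above background on 2 arrays, basigin (Bsg) on at most 2 by any probe, and Cd36 on none. Tlr4, the receptor of lipopolysaccharide that also binds calprotectin, read 6.21, 6.38 and 5.74 in the control and 6.50, 6.39 and 5.48 in the knockout tumours (difference 0.02 ± 0.32 SE, adjusted p = 0.99). Erbb2, a receptor tyrosine kinase of epithelia, read 7.11, 6.67 and 7.60 in the control and 7.74, 8.03 and 8.18 in the knockout tumours. Its groups did not overlap, and it was not called (0.86 ± 0.27 log2 units, SE, adjusted p = 0.096). Of 19 binding partners with a probe, 12 were measured, 2 fell, none rose and 10 did not pass (median -0.15), where 5.06% of all probes were called lower and 4.14% higher. Annexin A2 (Anxa2), the partner of S100A10, gave -0.55 ± 0.22 log2 units (SE, adjusted p = 0.18), and another probe of it gave 0.15. Myh9, the myosin heavy chain that S100A4 binds, gave -0.43 ± 0.18 (SE, adjusted p = 0.18), and Anxa1 gave 0.87 ± 0.52 (SE, adjusted p = 0.36).

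The falls among the partners were those of Plat and Il1a. Plat encodes the tissue plasminogen activator, which the S100A10 complex binds. It read 9.09, 9.40 and 10.03 in the control and 5.85, 6.52 and 7.70 in the knockout tumours, groups that did not overlap (-2.82 ± 0.47 log2 units, SE, adjusted p = 0.012, or 0.063 without the filter on dim probes, range over the alternatives 0.0039 to 0.063). Il1a, the cytokine interleukin 1 alpha, read 6.51, 8.60 and 9.32 in the control and 4.71, 5.22 and 5.68 in the knockout tumours (-2.94 ± 0.66 log2 units, SE, adjusted p = 0.032). Leaving out control 2, control 3, knockout 1, knockout 2 or knockout 3 cost Il1a its call (adjusted p = 0.090, 0.083, 0.060, 0.097 and 0.051). Over all alternatives its adjusted p ran from 0.013 to 0.14, and its difference was -1.24 with the authors' values. The fibroblast list, given above, moved with these falls. Of 11 endothelial markers with a probe, 3 were measured (median -1.71), and 1 was lower by the test, Eng (-2.95, adjusted p = 0.0033), against 5.06% of all probes. Egfl7 and Esam gave -1.49 and -1.71 (adjusted p = 0.054 and 0.13), and the other 8 did not pass the filter. The part of these cell types was not tested.

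Of 18 other EF-hand genes with a probe, 11 were measured, 3 fell, none rose and 8 did not pass (median -0.11), against the same 5.06% and 4.14% of all probes. Rcn3, a calcium-binding protein of the secretory pathway, fell from 7.81, 7.03 and 7.85 in the control to 5.01, 4.62 and 5.04 in the knockout tumours (-2.67 ± 0.27 log2 units, SE, adjusted p = 0.0033), and fell by 0.86 on the log2 scale with the authors' values. Its knockout values lay near background, and it was not above background on knockout 2, so the size depends on the background. Ncs1, a neuronal calcium sensor, gave -1.23 ± 0.19 (SE, adjusted p = 0.0099), its call lost without control 1 (adjusted p = 0.051), range over the alternatives 0.0060 to 0.051, and its size was -0.30 with the authors' values. Calu, a calumenin of the secretory pathway, gave -0.87 ± 0.21 (SE, adjusted p = 0.044), and that call was lost when any 1 tumour was left out (adjusted p = 0.077 to 0.12, range over all alternatives 0.025 to 0.12). Other kept probes of Calu gave differences from -0.99 to -0.14. The calmodulin genes Calm2 (0.56, adjusted p = 0.13) and Calm3 (-0.84, adjusted p = 0.084) were not called.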

How the data were processed

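RNA of 6 tumours was measured on Illumina bead arrays, 1 array per tumour, 3 per group. The authors deposited a signal intensity and a detection p-value for each probe, without normalization, per the file headers, and normalized values on a log2 scale, whose scaling the sources used here do not give (lumi 2.6.0 is named in the submitters' processing notes). The deposited detection columns hold other entries on 4 broken lines of 2 probes, which were left out. The authors' log2 columns (medians 7.40 to 7.41) ranked the probes as the signals of the same array did (Spearman 1) and served as an alternative.

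Signals were processed with neqc in limma 3.58.1 (R 4.3.3), which infers the background from the detection p-values, with an offset of 16. Probes above background (detection p below 0.05) on at least 3 arrays were kept (15885). Each kept probe was fitted with lmFit and eBayes for the difference of knockout minus control, two-sided, with Benjamini-Hochberg adjustment over all kept probes. Precision is limited by having 3 arrays a group. Intervals are 95% intervals of this fit. A gene's main probe is its kept probe of highest mean. Symbols came from the platform annotation, checked by gene number against GRCm38.p6 (34805 probes matched, 0 symbols changed). Of the probes, 34883 carry 1 symbol, 10378 are unnamed here, and the 18 that carry several named no gene. The test was tested on simulated data.

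The members, the 17 gene lists, the tests and the rule for named genes were chosen with earlier results of these data known. The rule took all members, called genes of the S100, receptor and partner lists, at most 4 genes of smallest p from each other list, and the 2 nearest profiles to each member with an SD of at least 0.5 over the tumours. Other genes named, such as receptors and partners not called, Calm2, Camp and Il1b, were chosen after their values were seen. Alternatives left out each tumour in turn, weighted the arrays, took the replicate number as a block, used cyclic loess, an offset of 50, uncorrected signals or the authors' values, and dropped or tightened the filter.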

Additional observations from a re-analysis of the deposited data

How the results depend on the processing

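For the 10 S100 genes, 132 of 147 alternative values kept both direction and side of the threshold. The count of members higher was 1 with the replicate number as a block and 1 with array weights, S100a1 in both (adjusted p = 0.047 with the block), and ran from 0 to 2 when 1 tumour was left out. The count of members lower was 0 under every processing alternative and ran from 0 to 1 when 1 tumour was left out, S100a4 without control 2. The sign of S100a10, near 0, turned with the authors' values (-0.0045), without background correction (-0.0015) and with cyclic loess (-0.03), and it ran from -0.21 to 0.43 when 1 tumour was left out. S100a14 ran from -0.57 to 0.11 and S100a9 from -0.06 to 2.22 in the same way. The cause of these changes was not tested. By their labels, same-numbered tumours share only a number. Their deviations correlated by 0.23, 0.09 and 0.06, against -0.20 to 0.08 for tumours of different number, which does not settle whether they are paired. The block moved the count of all calls from 1461 to 1381. That count was 723 without the filter, 476 without control 1, 741 without control 3 and 568 without knockout 2. S100a4, S100a9 and S100a14 lie near background, where the offset and background set the size of a difference, and they could not be tested with only probes detected on all 6 arrays.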

Other observations

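Between the first and the last member on chromosome 3, RefSeq (GRCm38.p6) lists 70 protein-coding genes, among them the small proline-rich, late cornified envelope and fused S100 genes of the outer skin layer. Of these, 57 had a named probe and 13 were measured, 10 of them members. The measured genes other than members were S100a3, Crct1 and Ivl. Ivl, which encodes involucrin of the cornified envelope, was the 1 gene called, with 6.52, 5.95 and 7.33 in the control and 4.69, 4.56 and 5.04 in the knockout tumours (-1.84 ± 0.35 log2 units, SE, limma adjusted p = 0.019). The call was lost without control 1 (adjusted p = 0.070), without knockout 2 (0.072), without the filter (0.075), without background correction (-0.75, adjusted p = 0.062) and with the authors' values (-0.48, adjusted p = 0.083). Over all alternatives the adjusted p ran from 0.011 to 0.083. Of 13 squamous markers with a probe, 4 were measured, and Ivl was the 1 called (median 0.16). For this list and for the 13 measured genes of the stretch, the share to compare is 9.20% of all probes called, 5.06% as lower. The markers Krt1, Lor, Krtdap and Calml3 were not above background on any array. Krt16, a keratin of stressed skin, read 5.95, 9.13 and 5.36 in the control and 6.12, 8.10 and 8.59 in the knockout tumours. Among the knockout tumours it was lowest in knockout 1, as S100a8 and S100a9 were, and it was not called (0.79, adjusted p = 0.71). Low values in knockout 1 were not particular to these genes. Among the knockout tumours, the mean log2 level of every cell type list but the luminal one was lowest there.

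Markers of macrophages had 3 of 12 genes with a probe measured and none called (median -0.57). Of these Cd14, a receptor for lipopolysaccharide, read 8.68, 10.03 and 11.29 in the control and 11.61, 13.25 and 12.95 in the knockout tumours (6.07-fold, 95% interval 1.05 to 4.15 log2 units, limma adjusted p = 0.051), while Lyz2 and Csf1r gave -2.08 and -0.57. Itgam, Mrc1 and Fcgr1 were not above background on any array. The complement genes of the list did not pass the filter and were above background in control tumours alone, C1qa and C1qb on control 2 and C1qc on control 2 and control 3. C1qc read 4.92, 8.01 and 5.69 in the control and 4.39, 4.66 and 4.62 in the knockout tumours. The basal list had 3 of 11 measured genes higher and 3 lower, where 4.14% of all probes were called higher and 5.06% lower. Of these Itga6 was above background in the knockout tumours alone, and 2 were higher among the 10 detected in both groups. The adipocyte list had 1 of 3 lower, and the lymphocyte (2 measured) and skeletal muscle (4 measured) lists none called.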
